A study of Arabidopsis thaliana with 30 samples.

Results

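Among the probe sets of the Arabidopsis ATH1 array, 39 of 22746 had low signal in mature green seed of the lec1-1 mutant and high signal in post-mature green seed of the same mutant, each time measured against wild type of the same stage. They were chosen on the mean signal of the 2 arrays of a group with 50 added. On that scale lec1-1 mature green seed was at least 2 times lower than wild type, lec1-1 post-mature green seed was at least 2 times wild type, and wild-type seedlings were above wild-type mature green seed. Control probe sets were left out. Of all probe sets, 1568 met the mature green limit and 3028 met the post-mature green limit. All 3 limits were met by 43, and 4 of these were left out because the annotation names them as photosystem or antenna genes (PSBY, PSAN, LHCB4.2) or as phosphoribulokinase (PRK). Another 38 outside those families met both late limits but were not higher in the seedling. Probe sets named as plastid-encoded were left out by the rule as well, so no member could carry such a name.

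LEAFY COTYLEDON1 (LEC1) is one of the subunits of an NF-Y transcription factor of the developing embryo, and seeds that lack it are known to make defective cotyledons and to fail in parts of maturation. Arabidopsis embryos turn green in mid-development, when their plastids become photosynthetic, and lose their chlorophyll again as the seed matures and dries. Seedlings green anew after germination, so that genes used in green plastids are usually low in the dry seed and high in the seedling.

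On ATH1, lec1-1 seed was taken at 5 stages: 24 hours after fertilization, globular, cotyledon, mature green, and last post-mature green. Wild-type seed was taken at the same times apart from the globular stage, and seedlings of the wild type 3 days after imbibition. Both genotypes were of ecotype Ws-0, grown under continuous light, and each of the 10 groups had 2 arrays that the labels call biological replicates. No lec1-1 seedling and no wild-type globular seed was among the arrays. On the older AtGenome1 array, lec1 and wild-type seed at 24 hours and mid-maturation and wild-type seed at late maturation were each 1 sample on 2 technical arrays. The labels give no allele for that lec1, name no rescued line, and do not say how many plants were pooled. Whole seeds were used, which hold embryo, endosperm and seed coat, so that fewer cells of a type and less RNA per cell cannot be told apart in any value below. Replicate arrays correlated at r = 0.935 to 0.982 across probe sets, and array medians lay between 176.8 and 217.4 signal units.

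The annotation named 1 gene for 5 of the 39 probe sets and no gene for 34, and the families could be left out by name only, so genes of those families may be among the 34. The named members were ALDH11A3 (AT2G24270, probe set 265998_at), which encodes a non-phosphorylating glyceraldehyde-3-phosphate dehydrogenase of the cytosol that makes NADPH, AT1G51400 (265149_at), AT1G21500 (260877_at), AT2G36145 (263287_at), and AT1G59740 (262912_at), of the NRT1/PTR family of nitrate and peptide transporters. AT1G51400 is known to encode a small protein of photosystem II, and it remained because the annotation gives it no PSB name. All 39 members reached the minimum of 100 signal units on 2 arrays that the tests below required.

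The level of the members in late lec1-1 seed hardly differed between both stages, while that in wild type dropped. Over the 39 members, the median of the group means was 1489 signal units in lec1-1 mature green seed and 1480 in lec1-1 post-mature green seed. The corresponding medians in wild type were 4295 at mature green and 99.2 at post-mature green. The summed signal of the members made up 0.427% and 0.369% of the array in lec1-1 mature green seed, against 0.978% and 1.643% in wild type. In post-mature green seed it made up 0.431% and 0.402% in lec1-1, against 0.037% and 0.029% in wild type. The low and the high state of lec1-1 are thus states relative to wild type, at nearly the same level in the mutant itself. These groups were used to choose the members, so their differences are a description with no test.

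On the scale of log2(mean signal + 50), lec1-1 minus wild type ran from -2.82 to -1.003 at mature green with a median of -1.55, which is a median 2.92-fold lower signal. In 38 of the 39 members both lec1-1 arrays lay below both wild-type arrays, the exception being the unnamed 258239_at. The same held in 5930 of all 22746 probe sets. At post-mature green the difference ran from 1.004 to 5.59 with a median of 2.85, which is 7.23-fold. Both lec1-1 arrays lay above both wild-type arrays in all 39, and in 6594 of all 22746 probe sets. In 20 of the 39 the wild-type post-mature green mean was below 100 units, where the fold depends on the 50 that was added. Of the 18459 probe sets in the test described below, 13% were called lower at mature green and 23.7% were called higher at post-mature green. Of the 2 named seed coat markers, the summed signal at mature green was 6048 to 8529 in lec1-1, against 7824 to 12556 in wild type, and at post-mature green 293 to 366 in lec1-1, against 538 to 603 in wild type. The silique wall marker ALC had 347 to 471 units at mature green in lec1-1, against 179 to 191 in wild type, and 393 to 403 at post-mature green in lec1-1, against 134 to 147 in wild type. The 2 named endosperm markers, AGL62 and IKU2, summed to at most 191.9 units on an array, and the part of these tissues in the members' values was not tested.

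Within lec1-1, post-mature green minus mature green ran from -0.59 to 1.63 with a median of 0.10, and 38 of 39 members stayed within 2-fold. AT1G59740 was the exception, at 3.10-fold. Within wild type the same step ran from -7.06 to -0.88 with a median of -4.46, a 22.02-fold lower signal. Both post-mature green arrays lay below both mature green arrays in all 39 members, and in 5824 of all 22746 probe sets. Both late limits together place the wild-type step below the lec1-1 step in every member. The wild-type fall is therefore partly fixed by the choice of members, and the shares of all probe sets are no test of it. Across all probe sets 95.9% stayed within 2-fold over this step in lec1-1 and 81.0% in wild type. The plot of the step between the late stages shows each member as a line between the genotypes.

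**Figure D1:**
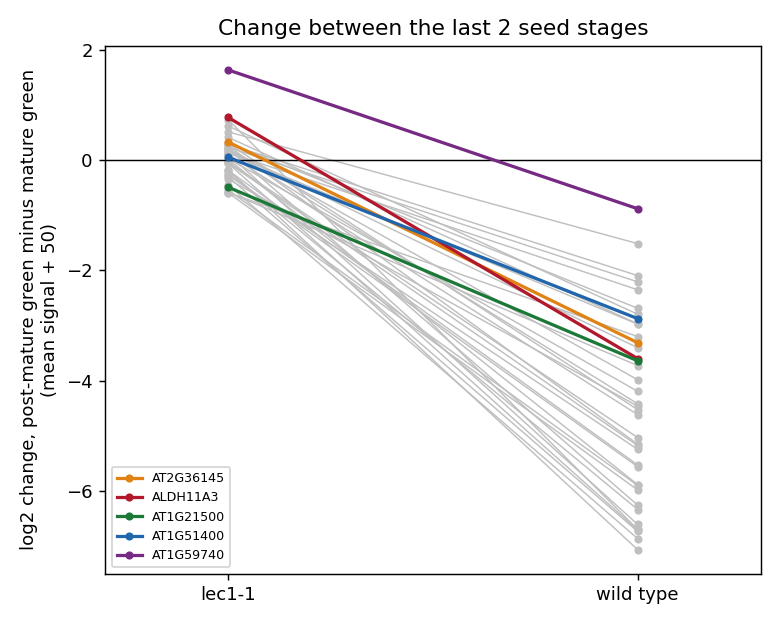
Change in each of the 39 probe sets between the last 2 seed stages, as post-mature green minus mature green on the log2(mean signal + 50) scale, in lec1-1 (left) and in wild type (right); each line is 1 probe set and the named genes are coloured. In lec1-1 the values lie between -0.59 and 1.63, and in wild type between -7.06 and -0.88.

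Earlier in development most members had signals above 100 units in both genotypes, with 2 to 4 of the 39 below 100 in each early group. Their median of group means in lec1-1 was 3003 at 24 hours, 1004 at the globular stage and 2751 at the cotyledon stage. In wild type it was 2965 at 24 hours and 3330 in cotyledon seed. The highest of the 10 groups was the wild-type seedling for each of the 39 members, with a median of 16589 and a range of 183.4 to 37967. The rule itself put seedlings above mature green seed of both genotypes and wild-type post-mature green seed below lec1-1 post-mature green seed, so that the highest and lowest groups are partly fixed by the choice of members. The members' summed signal was 3.816% and 3.783% of the seedling arrays. The seedling exceeded lec1-1 post-mature green seed by a median of 3.13 log2 units, which is 8.76-fold. The lowest group was wild-type post-mature green seed for 34 members, lec1-1 globular seed for 3, lec1-1 mature green seed for AT1G59740 and lec1-1 24-hour seed for AT2G36145.

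**Figure D2:**
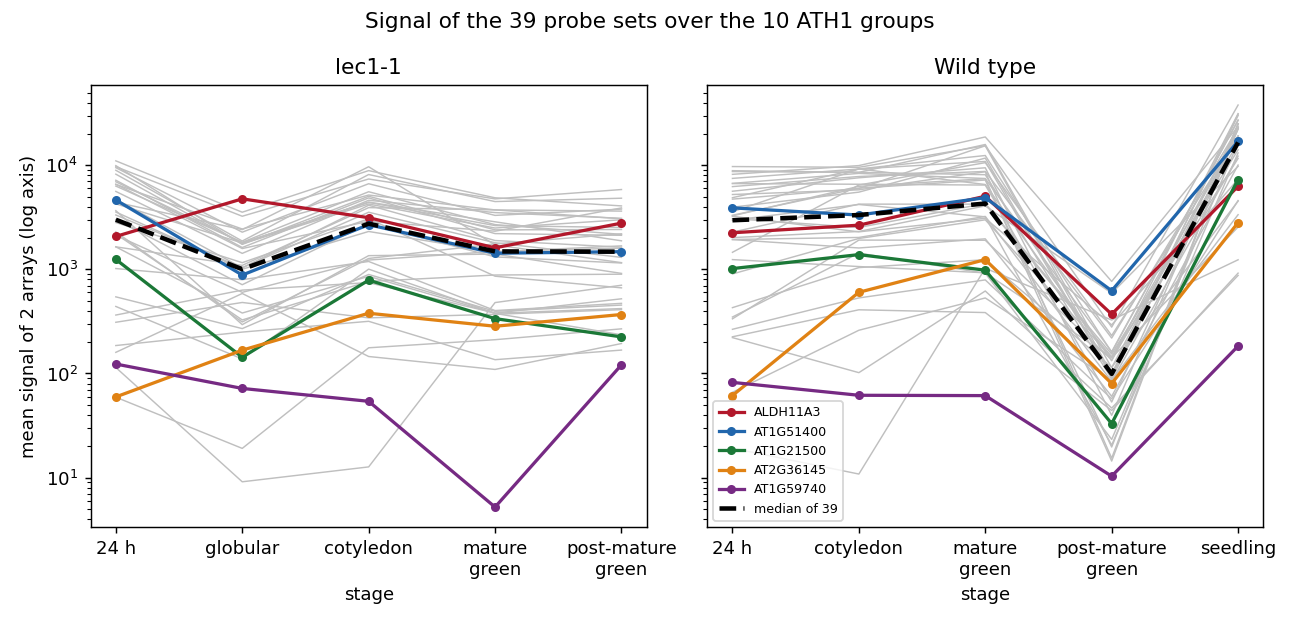
Mean signal of 2 arrays (log axis) of each of the 39 probe sets over the stages of lec1-1 (left) and of wild type (right), with the named genes coloured and the median of the 39 dashed. The median is 1489 and 1480 in late lec1-1 seed, and 4295 and 99.2 in late wild-type seed.

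ALDH11A3 had 1609.8 and 1613.2 units in lec1-1 mature green seed, against 3932.2 and 6162.5 in wild type. At post-mature green it had 2855.1 and 2713.1 in lec1-1, against 346.6 and 394.4 in wild type. The genotypes were apart on every array at both late stages, and the post-mature green ratio of 6.74-fold was the highest among the named members. In seedlings it had 6506.4 and 6075.5 units, only 1.24-fold above wild-type mature green seed on the scale with 50 added.

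AT1G51400 had 1715.2 and 1142.6 units in lec1-1 mature green seed, against 3753.6 and 6022.4 in wild type. At post-mature green it had 1765.6 and 1194.0 in lec1-1, against 981.6 and 264.6 in wild type. Here the wild-type arrays differed from each other by more than the lec1-1 arrays did, and the higher wild-type array came close to the lower lec1-1 array. In seedlings it had 16360.1 and 17689.9 units, the most of any named member.

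AT1G21500 had 405.9 and 267.1 units in lec1-1 mature green seed, against 652.4 and 1313.9 in wild type. At post-mature green it had 216.5 and 232.7 in lec1-1, against 9.1 and 56.8 in wild type. Both wild-type post-mature green arrays lay below 100 units, and it had 7529.8 and 7082.9 units in seedlings.

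AT2G36145 had 229.0 and 339.5 units in lec1-1 mature green seed, against 929.7 and 1551.3 in wild type. At post-mature green it had 386.3 and 350.9 in lec1-1, against 129.1 and 30.8 in wild type. At 24 hours it had 87.4 and 31.6 units in lec1-1, against 91.9 and 30.8 in wild type. It was the one named member whose lowest mean in either genotype was at 24 hours, and it had 2931.7 and 2702.2 units in seedlings.

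AT1G59740 had 5.9 and 4.5 units in lec1-1 mature green seed, against 102.0 and 20.5 in wild type. At post-mature green it had 174.2 and 67.8 in lec1-1, against 10.4 and 10.2 in wild type. Most of its values lay below 100, it had 132.8 and 234.0 units in seedlings, and its place in the group rests on low signals.

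**Figure D3:**
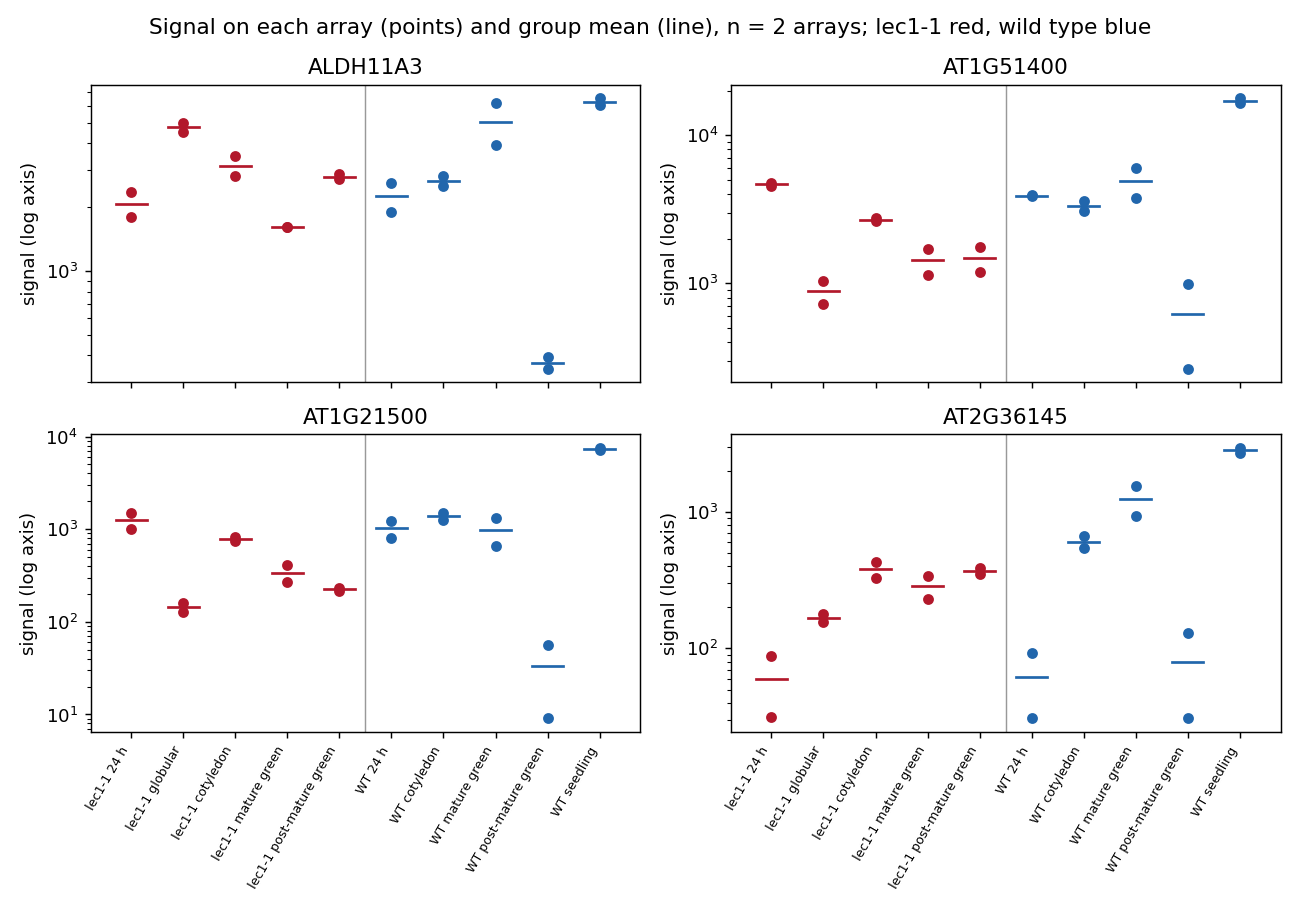
Signal on each array (points, log axis) and group mean of 2 arrays (line) of ALDH11A3, AT1G51400, AT1G21500 and AT2G36145 in the 5 lec1-1 groups (red, left) and the 5 wild-type groups (blue, right). All 4 genes are highest in wild-type seedlings, and ALDH11A3 is the only one of them that is highest in globular seed among the lec1-1 groups.

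Both arrays of wild-type mature green seed did not give the members alike. Replicate 1 was lower than replicate 2 in 36 of 39 members, by a median of 1.70-fold, and in no other group was the median difference above 1.27-fold. Without wild-type mature green replicate 1 the same limits chose 66 probe sets, 37 of them members, and without replicate 2 they chose 26, 22 of them members. With each of the 10 arrays of the rule left out in turn, 17 members were chosen every time, among them ALDH11A3 and AT2G36145. AT1G21500 was chosen in 9 of the 10, AT1G51400 in 8 and AT1G59740 in 7. With 3-fold limits 13 of the 39 remained.

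Some members lay close to a limit. At mature green the nearest inside were 262566_at, at 2.00-fold, AT1G59740, at 2.02-fold, and 260567_at, at 2.03-fold. The nearest outside were CHLM, a methyltransferase gene of chlorophyll synthesis, at 1.98-fold, 252441_at at 1.96-fold and 254970_at at 1.95-fold. At post-mature green 260567_at, at 2.01-fold, AT1G51400, at 2.27-fold, and 253412_at, at 2.32-fold, were nearest inside. AT2G04790, at 1.94-fold, AT1G31920, at 1.90-fold, and AT2G32640, at 1.82-fold, were nearest outside. For the seedling limit 260567_at, ALDH11A3 and 264092_at were nearest inside, at 1.20-fold, 1.24-fold and 1.26-fold of wild-type mature green seed. The nearest outside were 250125_at at 0.98-fold, 258086_at at 0.95-fold and AT3G23760 at 0.93-fold.

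Comparisons of groups that the selection did not use were tested with limma on log2(signal + 50), fitted to 18459 probe sets and all 20 arrays, with a Benjamini-Hochberg adjusted p under 0.05 as the call. Differences carry a moderated standard error with n = 2 arrays per group. Shares of all probe sets given with these tests are shares of the 18459. At 24 hours 0 of 39 members were called between lec1-1 and wild type, where 0.119% of all probe sets were called. The members' median difference was 0.18, against 0.01 over all probe sets tested, and 33 of the 39 lay above 0, against 51.5% of all. By the unadjusted limma p 1 member passed 0.05, where 4.46% of all probe sets did. It was the unnamed 260567_at, singled out after its value was seen, with 1.25 ± 0.26 (limma adjusted p = 0.09344).

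At the cotyledon stage the members leaned lower in lec1-1 without passing the test. By limma 0 of 39 were called, against 0.71% of all probe sets (0.645% lower), and 17 members had an unadjusted p under 0.05, all of them lower, where 8.85% of all probe sets passed, 5.44% lower. The median difference was -0.47, against 0.00 over all probe sets tested, and 35 of 39 lay below 0, against 50.1% of all. The smallest limma adjusted p of a member was 0.05747. A fit of only these 2 groups called 12 members, all lower in lec1-1, where 1.77% of all probe sets were called. Every wild-type cotyledon array states an array lot in its labels and no lec1-1 cotyledon array does, and the same holds in mature green seed. With the lot statement as a covariate, estimated from the groups whose arrays differ in it, the cotyledon median was -0.43. In that fit 0 members were called, against 0.45% of all probe sets.

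AT1G21500 had 832.0 and 744.2 units in lec1-1 cotyledon seed, against 1262.1 and 1511.7 in wild type. Its arrays did not overlap between the genotypes, and the difference of -0.77 ± 0.31 did not pass (limma adjusted p = 0.4359). AT2G36145 had 327.6 and 430.5 units in lec1-1, against 662.3 and 542.8 in wild type, a difference of -0.61 ± 0.36 (limma adjusted p = 0.7008). AT1G51400 had 2737.9 and 2638.6 units in lec1-1, against 3063.4 and 3596.5 in wild type (limma adjusted p = 0.9066). ALDH11A3 had 3467.6 and 2811.4 units in lec1-1, against 2795.1 and 2524.4 in wild type, and it was the one named member with a higher lec1-1 mean (limma adjusted p = 0.8508).

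The step of each genotype between 24 hours and the cotyledon stage was tested as well, over the same arrays as the comparisons above. In lec1-1, cotyledon minus 24 hours was called in 15 of 39 members, 5 higher and 10 lower, against 27.3% of all probe sets, 12.7% higher and 14.6% lower. In wild type it was called in 13 of 39, 12 higher and 1 lower, against 24.4% of all, 12.1% higher and 12.2% lower. Of the 12 that were higher in wild type, 4 were also called higher in lec1-1 and 0 were called lower there. The difference between the steps was called in 0 of 39 members by limma, against 0.314% of all probe sets, with 15 members at an unadjusted p under 0.05, all lower in lec1-1, where 6.60% of all probe sets passed, 4.08% lower. That difference had a median of -0.69, against -0.01 over all probe sets, and it was below 0 in 37 of 39 members, against 51.6% of all. With 1 array of the step's own groups left out, the members' median lay between -0.34 and -0.18 in lec1-1. In wild type it lay between 0.17 and 0.47.

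AT2G36145 rose over this step in both genotypes, by 2.01 ± 0.36 in lec1-1 (limma adjusted p = 0.0002489) and by 2.60 ± 0.36 in wild type (limma adjusted p = 1.683e-05). ALDH11A3 rose in lec1-1 by 0.59 ± 0.20 (limma adjusted p = 0.0318). That call was lost without lec1-1 24-hour replicate 2 (0.40, limma adjusted p = 0.2929), without lec1-1 cotyledon replicate 1 (0.44, limma adjusted p = 0.242), and with no intensity trend (0.59, limma adjusted p = 0.07229).

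In lec1-1 globular seed most members were low. Globular minus 24 hours was called in 31 of 39 members, 28 lower and 3 higher, against 29.9% of all probe sets, 16.5% lower and 13.4% higher. The median difference was -1.65, against -0.06 over all probe sets tested. Cotyledon minus globular was called in 30 of 39 members, 28 higher and 2 lower, against 15.2% of all probe sets, 8.27% higher and 6.9% lower. Its median was 1.37, against 0.01 over all. Both steps use the same globular arrays, so a low globular value makes them opposite in sign, and 26 members were called lower in the one and higher in the other. With 1 array of the step left out, the median of the first step ran from -1.88 to -1.45. That of the second ran from 1.16 to 1.59.

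AT1G21500 had 159.6 and 127.1 units in lec1-1 globular seed, against 1481.6 and 1014.6 at 24 hours. Its globular arrays lay far below all other lec1-1 seed up to the cotyledon stage, and it fell by 2.73 ± 0.31 (limma adjusted p = 1.468e-06). It was 2.12 ± 0.31 higher at the cotyledon stage than at the globular stage (limma adjusted p = 9.753e-05). AT1G51400 had 1042.7 and 722.0 units in globular seed, against 4543.2 and 4743.6 at 24 hours, and fell by 2.35 ± 0.36 (limma adjusted p = 5.352e-05). It was 1.58 ± 0.36 higher at the cotyledon stage (limma adjusted p = 0.005352), a call that was lost without globular replicate 2 (1.33, limma adjusted p = 0.06328).

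ALDH11A3 went the other way. It had 4539.5 and 4988.6 units in lec1-1 globular seed, against 2347.3 and 1800.1 at 24 hours, and rose by 1.19 ± 0.20 (limma adjusted p = 0.000122). Its later difference of -0.60 ± 0.20 at the cotyledon stage passed narrowly (limma adjusted p = 0.04729), and the call was lost in 10 of 14 alternative settings. AT2G36145 had 156.6 and 178.2 units in globular seed, against 87.4 and 31.6 at 24 hours, a rise of 1.04 ± 0.36 (limma adjusted p = 0.03446). That call was lost without lec1-1 24-hour replicate 2 (0.66, limma adjusted p = 0.3154), without globular replicate 1 (1.11, limma adjusted p = 0.09011) and without globular replicate 2 (0.96, limma adjusted p = 0.1439). It was also lost with an offset of 1 (1.65, limma adjusted p = 0.05082) and with no intensity trend (1.04, limma adjusted p = 0.05449). AT1G59740, with 97.2 and 46.4 units in globular seed, did not pass (-0.53 ± 0.45, limma adjusted p = 0.4295).

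Of the unnamed members, 259431_at and 250892_at are singled out after their values were seen, as the most negative and the most positive of the 39 at this step. The first had 207.7 and 381.3 units in lec1-1 globular seed, against 3851.8 and 3484.2 at 24 hours, a difference of -3.48 by limma. The second had 555.1 and 618.7 units in globular seed, against 174.9 and 144.2 at 24 hours, a difference of 1.61. It was also the 1 member of the 39 called lower over the wild-type step to the cotyledon stage, which passed narrowly (limma adjusted p = 0.0494). With an offset of 16 or 1, quantile normalization or the replicate number as a block, 0 members were called lower there.

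The labels of the globular arrays name a labelling kit of their own and state no software or scaling, and no other group shares that description, so it cannot be told apart from the stage. Seed coat markers moved with the step too: BAN, an enzyme gene of seed coat tannins, was higher in globular than in 24-hour lec1-1 seed by 4.25 ± 0.33 (limma adjusted p = 1.301e-08), and DELTA-VPE, a protease gene of the seed coat, by 1.78 ± 0.24 (limma adjusted p = 1.413e-05). Their summed signal was 31868 to 36784 units on the globular arrays, against 5481 to 5931 at 24 hours, with 2 of 7 listed markers named on the array. The silique wall marker ALC fell by 0.99 ± 0.17 on the log2 scale in globular seed, with 3591 to 4138 units, against 7301 to 8135 at 24 hours. The part of these in the members' low globular values was not tested.

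**Figure D4:**
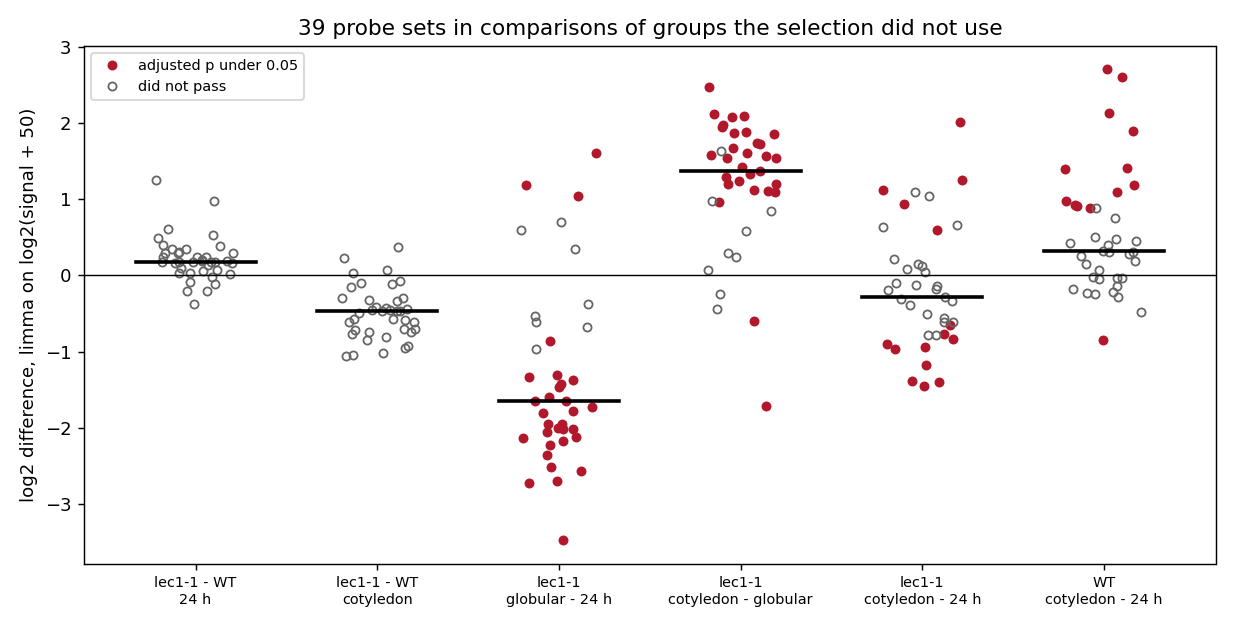
Differences of the 39 probe sets in 6 comparisons that the selection did not use, as limma estimates on log2(signal + 50), with the first-named group minus the second; filled points passed an adjusted p of 0.05, open points did not, and bars are medians. In lec1-1 28 members are lower in globular than in 24-hour seed and 28 are higher in cotyledon than in globular seed.

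The 4 named genes that met the 3 limits and were left out by family followed the same course. PSBY and PSAN, of the photosystems, LHCB4.2, of the photosystem II antenna, and PRK, of the Calvin cycle, were each called lower in lec1-1 globular than in 24-hour seed, by -0.89 to -1.83, and higher in cotyledon than in globular seed, by 1.07 to 1.55. Of all probe sets, 16.5% were called lower in the first of these steps and 8.27% higher in the second. Between the genotypes, limma called 0 of the 4 at 24 hours and 0 in cotyledon seed, against 0.119% and 0.71% of all.

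Of the 141 genes in 9 lists of green-plastid pathways, 25 were named on the array and 0 were members. Members are only 39 of all 22746 probe sets, and the 34 without a named gene could not be matched to a list. The 0 therefore does not place the members outside these pathways. A listed gene that met the 3 limits would have been a member, so that these lists cannot be set against the members at the late stages. In lec1-1 mature green seed 12 of the 25 were called higher and 4 lower than wild type, where 28.7% of all probe sets were called, 15.7% higher and 13% lower. The 4 lower genes were CHLM (-0.91 ± 0.22), the Calvin cycle kinase gene PGK2 (-0.88 ± 0.23), the glycerate kinase gene GLYK of photorespiration (-0.82 ± 0.20) and the lycopene cyclase gene LYC of carotenoid synthesis (-0.69 ± 0.20). By list, 6 of 10 chlorophyll synthesis genes and 4 of 4 genes of plastid ribosomal proteins were called higher there.

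In lec1-1 post-mature green seed 23 of the 25 were called higher and 1, GLYK, lower, where 44.1% of all probe sets were called, 23.7% higher and 20.5% lower. They included all 10 chlorophyll synthesis genes, all 3 Calvin cycle genes and all 4 plastid ribosomal genes. In lec1-1 globular seed 12 of the 25 were called lower than at 24 hours and 2 higher, PGK2 and the starch branching enzyme gene SBE2.2. Of all probe sets, 16.5% were called lower and 13.4% higher there. At the cotyledon stage 1 was called, where 0.71% of all probe sets were. It was PRPL29, a plastid ribosomal protein gene, at -1.19 ± 0.26 in lec1-1 minus wild type (limma adjusted p = 0.03226).

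On AtGenome1, 3 of the named members had a probe set, on arrays that the selection did not use. ALDH11A3 had 5421.4 and 5041.1 units in lec1 seed at mid-maturation, against 14060.4 and 13160.3 in wild type, a log2 ratio of -1.38. AT1G51400 had 4145.1 and 4898.4 units in lec1, against 5740.0 and 5776.6 in wild type, a log2 ratio of -0.35. AT1G59740 had 249.9 and 266.7 units in lec1, against 342.3 and 298.0 in wild type, near the floor of 250. The first 2 were lower in lec1 on all arrays, and the median over the 3 was -0.35, against 0.00 over 8297 probe sets. With 1 sample per group there is no test.

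At 24 hours the median over the same 3 genes was 0.30 in lec1 over wild type. In wild type, late over mid-maturation was -0.72 in log2 for ALDH11A3, with 7839.3 and 8672.9 units at late maturation. It was -1.26 for AT1G51400, with 2073.4 and 2731.7 units, and 1.22 for AT1G59740, with 891.9 and 594.7 units. The median over the 3 was -0.72, against 0.00 over all probe sets. AT1G59740 thus rose here, whereas its wild-type mean on ATH1 fell from 61.25 units at mature green to 10.3 at post-mature green. No late maturation lec1 seed was on this array, so the later, relatively high state of the members was not measured there.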

How the data were processed

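RNA of whole seeds and seedlings was measured on 20 ATH1 and 10 AtGenome1 arrays. The authors deposited intensity values on a linear scale, per the labels from Microarray Suite 5.0 scaled to 500 (ATH1) and Microarray Suite 4.0 scaled to 2500 (AtGenome1). For the globular arrays the software and scaling are not given in the sources used here. The number of arrays limits the precision. Genes were named through the platform annotation updated to TAIR10.1, which gave 13513 ATH1 probe sets 1 gene, 503 several and 8730 none. A listed gene was matched by locus.

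Controls were removed, and a probe set was tested if at least 2 arrays gave it 100 units. limma 3.58.1 in R 4.3.3 (lmFit, eBayes with intensity trend, two-sided, 10 residual and 8.64 prior degrees of freedom) was fitted to log2(signal + 50), with Benjamini-Hochberg adjustment per contrast, and was tested on simulated data. AtGenome1 values were floored at 250. Replicate numbers did not pair the groups (correlations of deviations -0.04 to 0.13). Other offsets, filters, scalings and array sets were tried.

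The members and gene lists were chosen with earlier results of these data known. The rule for named genes took members with 1 named gene, up to 25 by the smaller of their late folds, those in a list or called early, and the 3 nearest to each limit on either side. Sequences and promoters are not analysed here, and LEC1 itself is not used here.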

Additional observations from a re-analysis of the deposited data

How the results depend on the processing

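The choice of members depended on the offset and the arrays. The 3 limits chose 127 probe sets with no offset, 64 with an offset of 16, 34 with 100 and 13 with 3-fold limits, and 26 to 66 with 1 array left out. At the cotyledon stage, lec1-1 minus wild type called 12 members in a fit of only the groups compared, against 1.77% of all probe sets. It called 1 after quantile normalization, against 0.726%, and 1 without the globular arrays, against 0.78%. Leaving out the globular arrays was an alternative chosen after seeing the data. The wild-type step between 24 hours and the cotyledon stage called 7 with an offset of 1, and 7 to 10 with an array left out. The lec1-1 step called 24 in a fit of its own groups, and 7 to 9 with an array left out. The difference between these steps called 5 in a fit of its own groups, against 0.964% of all. The causes were not tested. In the alternatives that kept both arrays of each group, globular minus 24 hours called 29 to 33 members, against 23.3% to 31.6% of all. Cotyledon minus globular called 26 to 33, against 11.3% to 17%. The 24-hour comparison called 0 members in all 15 of its alternatives. With the replicate number as a block, the counts were 0 at 24 hours, 0 at the cotyledon stage, 13 for the wild-type step and 15 for the lec1-1 step. They were 30 and 31 for the steps into and out of the globular stage, and 0 for the difference of steps. In the same order, 0.0975%, 0.758%, 24.8%, 27.9%, 30.5%, 15.7% and 0.379% of all probe sets were called. The AtGenome1 median at mid-maturation lay between -0.47 and -0.26. No median over the members and no called difference of a named gene changed sign in the alternatives. The counts of members called were not compared by direction. For the lec1-1 step between 24 hours and the cotyledon stage, 5 higher and 10 lower became 5 higher and 5 lower with an offset of 1. Signals below 100 in late wild-type seed limit 20 of the post-mature green folds.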
